A study of Mus musculus with 27 samples.

Results

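Peritoneal macrophages labelled SRBI-knockdown were compared with control peritoneal macrophages, 3 libraries against 3, out of 27 libraries in the series. Peritoneal macrophages are the resident phagocytes of the abdominal cavity. Poly(A) RNA from mouse cells was sequenced in bulk from stranded libraries, and 13630 of the 55291 listed genes, those with a mean normalised read count of at least 10 over the 9 macrophage libraries, were analysed. The knockdown libraries carry SRBI-knockdown as a genotype label. A chylomicron-treated macrophage group of 3 libraries is used here for direct comparison, and the controls carry neither label. The labels give no strain, sex, age, dose or time, and they leave unstated the cell in which SRBI was reduced and any chylomicron or vesicle exposure of the knockdown group. The extraction text names PL and PLA murine cell lines for every library, and nothing states whether replicates came from separate animals or cultures, so p-values measure only the spread between these samples. The title of the series places the comparison within the question of how vesicles shed by chylomicron-exposed endothelial cells act on macrophages.

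SR-BI, scavenger receptor class B type I, is a cell-surface protein encoded by Scarb1 that binds high-density lipoprotein and other lipoproteins and moves cholesterol esters and free cholesterol across the membrane. In macrophages it takes part in cholesterol exchange and in the uptake of dying cells. Macrophages that meet an inflammatory stimulus switch on cytokine and chemokine genes through NF-kB, and interferons switch on a separate set through STAT and IRF factors.

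Both kinds of promoter are shown for a few example genes, as the 170 bases before the annotated gene start, from RefSeq on GRCm38.p6. Every gene shown holds its motif, so the examples do not stand for their lists, whose shares are given below. The first set holds chemokine and cytokine genes that were higher in the knockdown than in the controls, with matches on either strand to an NF-kB-type motif, GGG and TTTCC with 2 free bases between them, in capitals. They lie at chr5:90891075-90891244 (Cxcl1), chr5:90903729-90903898 (Cxcl2), chr5:90785931-90786100 (Cxcl3) and chr5:30012944-30013113 (Il6), all on the plus strand.
Cxcl1: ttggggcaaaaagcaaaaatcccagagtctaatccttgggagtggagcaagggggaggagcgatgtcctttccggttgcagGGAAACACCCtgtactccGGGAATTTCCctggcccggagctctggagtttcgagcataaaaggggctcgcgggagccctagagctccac
Cxcl2: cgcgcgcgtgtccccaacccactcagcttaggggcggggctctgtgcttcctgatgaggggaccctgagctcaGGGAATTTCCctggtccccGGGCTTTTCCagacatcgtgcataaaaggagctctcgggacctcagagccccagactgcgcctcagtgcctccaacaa
Cxcl3: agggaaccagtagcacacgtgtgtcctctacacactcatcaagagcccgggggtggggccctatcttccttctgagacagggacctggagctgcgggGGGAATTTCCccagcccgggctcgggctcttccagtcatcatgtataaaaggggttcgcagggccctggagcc
Il6: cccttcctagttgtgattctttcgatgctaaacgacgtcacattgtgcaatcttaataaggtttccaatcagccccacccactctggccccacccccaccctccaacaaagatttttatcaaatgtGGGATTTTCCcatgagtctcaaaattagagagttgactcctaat
The motif began 89 and 71 bases before the start of Cxcl1, 97 and 78 bases before that of Cxcl2, 73 bases before that of Cxcl3 and 44 bases before that of Il6. Over the 250 bases before the start, 464 of 32851 RefSeq promoters held it, which is 1.41%. Among genes with a promoter in the table it was found in 11 of 274 genes called higher by a log2 fold change of at least 1 (4.01%; 2.91% of all tested genes were so called), in 9 of 282 called lower by as much (3.19%; 2.69% of all) and in 118 of 6809 not called (1.73%). Of the chemokine genes 4 of 15 held it (26.7%), and of the inflammatory cytokine genes 2 of 17 (11.8%).

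The second set holds interferon-response genes that were lower in the knockdown than in the chylomicron-treated macrophages, with matches on either strand to an interferon-response motif, GAAA and GAAA with 2 free bases between them, in capitals. They lie at chr4:156200819-156200988 on the minus strand (Isg15), chr19:34640719-34640888 on the plus strand (Ifit1), chr12:26456453-26456622 on the minus strand (Rsad2) and chr3:142496764-142496933 on the plus strand (Gbp5).
Isg15: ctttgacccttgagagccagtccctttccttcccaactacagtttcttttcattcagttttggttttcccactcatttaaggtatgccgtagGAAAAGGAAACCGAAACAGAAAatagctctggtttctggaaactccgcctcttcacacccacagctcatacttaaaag
Ifit1: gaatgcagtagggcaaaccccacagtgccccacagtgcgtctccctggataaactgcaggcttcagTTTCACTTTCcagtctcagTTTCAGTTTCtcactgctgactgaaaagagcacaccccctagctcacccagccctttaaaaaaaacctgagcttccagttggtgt
Rsad2: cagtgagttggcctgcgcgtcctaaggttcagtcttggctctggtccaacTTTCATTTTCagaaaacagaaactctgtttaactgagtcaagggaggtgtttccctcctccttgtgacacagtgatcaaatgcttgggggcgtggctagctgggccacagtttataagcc
Gbp5: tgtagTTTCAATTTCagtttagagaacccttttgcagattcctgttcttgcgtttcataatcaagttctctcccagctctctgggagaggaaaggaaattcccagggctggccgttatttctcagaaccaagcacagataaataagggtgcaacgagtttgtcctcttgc
Isg15 had 3 overlapping matches, which began 78, 72 and 66 bases before its start, and those of Ifit1 began 104 and 85 bases before. The match of Rsad2 began 120 bases before the start and that of Gbp5 165 bases before. This motif was in 978 of 32851 RefSeq promoters (2.98%). It was in 55 of 601 genes called lower in the knockdown than in chylomicron-treated cells (9.15%), in 16 of 567 called higher (2.82%) and in 258 of 8844 not called (2.92%). Of the type I interferon list 11 of 22 promoters held it, and of the interferon-gamma-induced GTPases 8 of 9. A match describes the letters and was not tested for binding.

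The libraries held 38332909, 51164434 and 55874954 reads in the knockdown, 30733117, 30547284 and 38394674 in the chylomicron group and 42775013, 43529945 and 45991856 in the controls. On the first principal component of log2 values, which carried 41.06% of the variance, the 3 knockdown and 3 chylomicron libraries lay on one side and the 3 controls on the other. Chylomicron replicate 1 stood apart on the second component and chylomicron replicate 2 on the third. Those libraries also had the fewest genes with any read, 16235 and 16384, against 18028 to 20149 in the others. The part of this in the contrast of knockdown with chylomicron was not tested. Macrophage genes were abundant throughout: Adgre1, which encodes the F4/80 antigen, had 143390, 142310 and 150550 normalised counts in the knockdown, against 135630, 136530 and 130250 in the controls.

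The targeted gene was lower in the knockdown by a small margin. Scarb1 had 1875, 1770.5 and 2149 normalised counts in the SRBI-knockdown libraries, against 2281, 2287 and 2354 in the controls. The groups did not overlap, and the log2 fold change was -0.26 ± 0.07 (SE, n = 3 libraries a group) with an adjusted p of 0.0127. Here and below, the test is limma on log2(normalised count + 1) with Benjamini-Hochberg adjustment over 13630 genes, the fold change is knockdown over control, and a gene is called at an adjusted p under 0.05. The call was lost without knockdown replicate 1 (-0.24, adjusted p = 0.0561) and without knockdown replicate 2 (-0.20, adjusted p = 0.0813). In chylomicron-treated macrophages, which carry no knockdown label, Scarb1 had 1571, 1832 and 1737 normalised counts. The knockdown was not separated from them (log2 difference 0.17 ± 0.07, adjusted p = 0.163), so the level of Scarb1 does not tell these 2 groups apart.

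Against this, much of the transcriptome differed. Of 13630 genes, 4109 were called (30.1%), 1998 higher in the knockdown (14.7%) and 2111 lower (15.5%), and the median log2 fold change over all genes was 0.0054. With values scaled to library totals the count was 4392, of which 1372 were higher and 3020 lower, a share of 31.2% higher against 48.6% in the main fit. A log2 fold change of at least 1 was found for 397 genes called higher (2.91%) and 367 called lower (2.69%). At 3 or more the counts were 69 higher (0.506%) and 16 lower (0.117%). The filter used the mean over all 9 libraries, chylomicron group included. A gene low only in the controls thus passed it at lower values than a gene high only in them. The part of the filter in these counts was not tested. Groups that do not overlap were found for 47.5% of all genes.

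**Figure D1:**
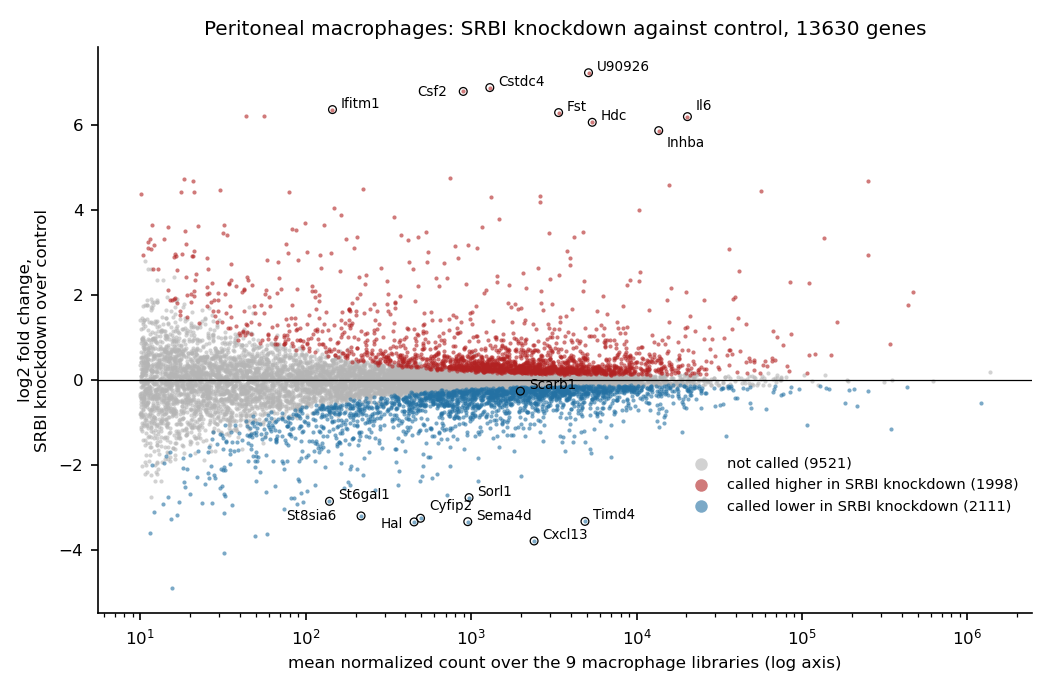
Each point is a gene, with its mean normalised count over 9 libraries on the x axis (log axis) and its log2 fold change, SRBI knockdown over control, on the y axis. Red points are the 1998 genes called higher and blue points the 2111 called lower, and labels mark Scarb1 near the midline at -0.26 and the 8 highest and 8 lowest genes among those averaging at least 100.

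The genes with the largest rise, among those averaging at least 100 normalised counts, included Hdc, Inhba and Fst. Hdc encodes histidine decarboxylase, which makes histamine. It had 7426, 7364 and 6489 normalised counts in the knockdown, against 126, 75 and 122 in the controls (log2 fold change 6.06 ± 0.14, adjusted p = 1.01e-15). Inhba, which encodes the activin A subunit, had 12142, 14512 and 11307 counts in the knockdown, against 231, 193 and 222 in the controls (5.87 ± 0.09). Fst encodes follistatin, the secreted binder of activin, and had 6646, 5156 and 5073 counts in the knockdown, against 69.9, 78.6 and 63.3 in the controls. The rule for the extremes took only genes whose groups did not overlap, and in these genes the gap was wide. The other genes of the top 8 were U90926, Cstdc4, Csf2, Ifitm1 and Il6, with log2 fold changes of 6.20 (Il6) to 7.23 (U90926). Cstdc4 belongs to the stefin family of near-identical copies, and how the authors counted shared reads is not given in the sources used here, so its level is uncertain.

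Genes with the deepest fall included sialyltransferases and resident-macrophage genes. St6gal1, which adds terminal sialic acid to glycoproteins, had 57.1, 31.2 and 51.1 normalised counts in the knockdown, against 357, 332 and 307 in the controls (log2 fold change -2.85 ± 0.26, adjusted p = 1.84e-07). St8sia6, another sialyltransferase, fell as well (-3.20). Sorl1 encodes a sorting receptor. It had 318, 289.7 and 377 counts in the knockdown, against 2209.7, 2441 and 2035 in the controls (-2.77 ± 0.11). Sema4d, a membrane semaphorin, had 238, 236 and 210.4 counts in the knockdown, against 2281, 2451 and 2179.7 in the controls. The remaining genes of the lowest 8, Cxcl13, Hal, Timd4 and Cyfip2, had log2 fold changes of -3.78 to -3.25. No knockdown library reached the lowest control in any of these 8 genes, as the rule for choosing them required. In bulk RNA, fewer cells that express a gene and less RNA of it per cell cannot be told apart.

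Most inflammatory cytokine genes rose, while Tnf was not called. Of 26 tested, 17 were called higher in the knockdown, 3 lower and 6 neither, with a median log2 fold change of 1.72. Chylomicron-treated macrophages, which carry no knockdown label, had 18 higher and 1 lower against the same controls, with a median of 1.82. List counts against the controls, here and below, stand beside shares over all genes of 14.7% higher and 15.5% lower. Il1a encodes interleukin-1 alpha and had 184620, 194520 and 181260 normalised counts in the knockdown, against 19287, 15952 and 20187 in the controls (3.34 ± 0.07, adjusted p = 4.58e-16). Csf3, the granulocyte colony-stimulating factor gene, had 25824, 24685 and 23871 counts in the knockdown, against 1236, 865 and 1034 in the controls (4.58 ± 0.09, adjusted p = 1.51e-16). Il6 had 23891, 26093 and 25316 counts in the knockdown, against 437, 241 and 378 in the controls. Tnf encodes tumour necrosis factor and had overlapping values, 9805, 12299 and 11369 in the knockdown and 12117, 9971 and 11933 in the controls (-0.02 ± 0.08, adjusted p = 0.87). The 3 genes called lower were Il15, a growth factor for lymphocytes (-1.82), Vegfa, the angiogenic factor gene (-0.65), and Il18 (-0.58).

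Regulators of interleukin-1 moved in both directions, with 5 of 13 called higher and 5 lower. Il1rn, which encodes the secreted receptor antagonist, had 38796, 34958 and 38300 normalised counts in the knockdown, against 10196, 10188 and 10052 in the controls (1.88 ± 0.05). The inflammasome sensor gene Nlrp3 was also higher (0.61 ± 0.05). Casp1, the protease that cleaves pro-interleukin-1 beta, was lower, with 2677, 2785 and 2635 counts in the knockdown, against 3738, 3504 and 3664 in the controls (-0.43 ± 0.05). Pycard, the adaptor between sensor and caspase (-0.63), Nlrp1b (-3.02) and Il18bp, the decoy for interleukin-18 (-1.30), fell too.

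Most chemokine genes rose, the neutrophil attractants of the CXC family among them. Of 22 tested, 14 were called higher and 4 lower, with a median log2 fold change of 1.63. Cxcl3 had 363900, 353380 and 380100 normalised counts in the knockdown, against 51703, 39135 and 54555 in the controls (2.93 ± 0.09). Cxcl5 had 16319, 16675 and 17565 counts in the knockdown, against 1102, 894 and 1187 in the controls (adjusted p = 1.51e-16). Both genes were separated by several fold, and the neighbouring genes Cxcl1 and Cxcl2 rose by 3.09 and 2.29 on the log2 scale. Among CC chemokines, Ccl2, the monocyte attractant gene, rose by 2.54, Ccl3 by 1.90 and Ccl22, which attracts regulatory T cells, by 4.49. The interferon-induced Cxcl10 was lower, with 43.1, 38.4 and 39.8 counts in the knockdown, against 95.6, 79.5 and 97.1 in the controls (-1.14 ± 0.27, adjusted p = 0.00297). Among the receptors, Ccr1 rose by 1.07 and Ccr3 by 1.53, while Cx3cr1, the fractalkine receptor gene, had 5.39, 4 and 3.01 counts in the knockdown, against 119, 83.1 and 59.1 in the controls. Ccr2 was low and overlapping in both groups.

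Genes of the NF-kB pathway and of cytokine feedback changed by less in the median, although some feedback genes rose strongly. In the NF-kB list 13 of 21 were called higher and 2 lower (median 0.21), and 11 and 5 with library totals. Nfkb1 had 13154, 13130 and 13539 normalised counts in the knockdown, against 10122, 9488 and 9652 in the controls (0.44 ± 0.04), and Rel rose by 0.76. Several feedback genes rose too: Nfkbia by 0.35, Tnfaip3 by 0.43, Zc3h12a, an RNase that destroys cytokine messages, by 1.22 and Traf1 by 1.97. The 2 called lower, Tnip3 (-0.39) and Nfkbie (-0.32), are inhibitors of the pathway as well. Of 22 negative regulators of cytokine signalling, 15 were called higher and 2 lower (median 0.35). Socs1 had 6448, 5504 and 6244 counts in the knockdown, against 844, 429 and 556 in the controls (3.37 ± 0.15), Cish rose by 3.60 and Socs3 by 1.51. Ptpn6, the phosphatase SHP-1, was lower (-0.33).

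Toll-like receptor genes were split, with 8 of 23 called higher and 8 lower. Tlr4, the receptor for bacterial lipopolysaccharide, had 6588, 6709 and 6128 normalised counts in the knockdown, against 3105, 3118 and 3264 in the controls (1.03 ± 0.05), and its co-receptor Cd14 rose by 1.20 on the same scale. Tlr2 and Myd88 overlapped between the groups (0.05 and 0.04). Cd180 and its partner Ly86, a receptor pair related to Tlr4, fell (-1.31 and -1.12), as did the adaptor gene Ticam2 (-0.86).

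**Figure D2:**
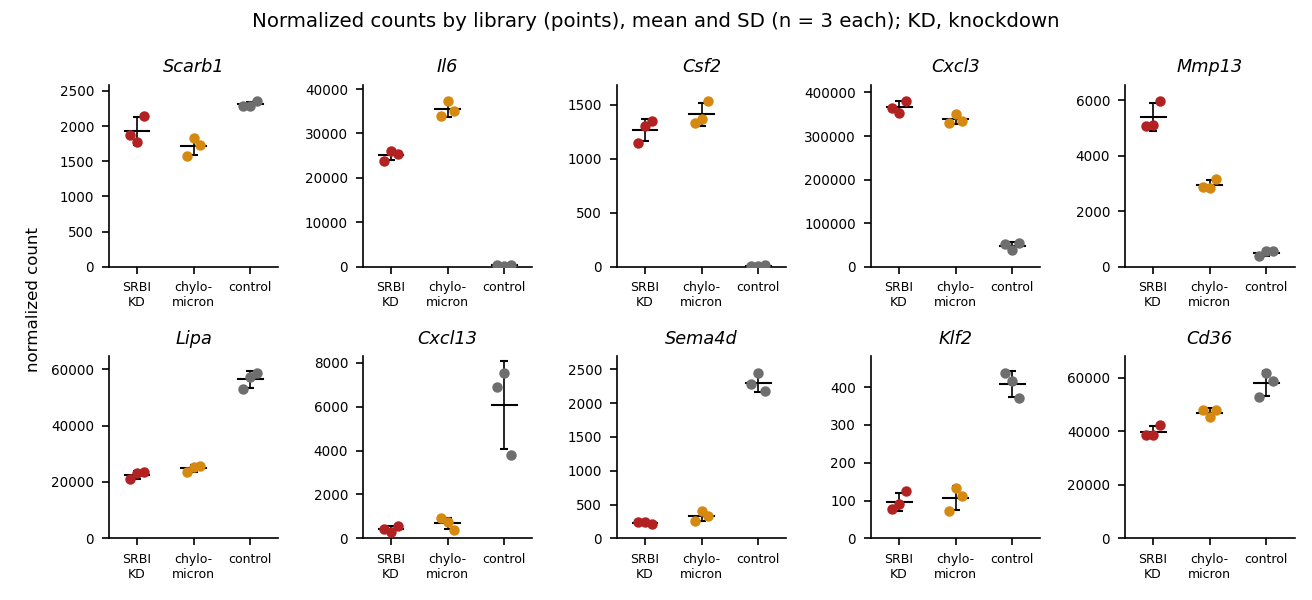
Normalised counts (y axes from 0) of 10 genes, with a point for each library, a bar at the mean and error bars of 1 SD (n = 3 each), in SRBI knockdown, chylomicron and control macrophages. Il6, Csf2, Cxcl3 and Mmp13 lie higher and Lipa, Cxcl13, Sema4d, Klf2 and Cd36 lower in the knockdown than in the control libraries, while Scarb1 differs by -0.26 on the log2 scale.

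Few interferon-response genes rose. The gene for the cytokine itself, Ifnb1, was below the filter on low values. Of 32 type I interferon-response genes, 2 were called higher and 11 lower (median log2 fold change -0.09). Mx1, an antiviral GTPase gene, had 34.5, 36 and 21.8 normalised counts in the knockdown, against 156, 159 and 168 in the controls (-2.38 ± 0.28, adjusted p = 4.03e-06). Rsad2, which encodes viperin, had 60.4, 80.8 and 65.4 counts in the knockdown, against 205, 210.5 and 165 in the controls (-1.48 ± 0.20). Both antiviral genes had no overlap, and Ifit1 fell (-0.85). Isg15 overlapped, with 533, 639 and 724 counts in the knockdown and 742, 625 and 698 in the controls (-0.13, adjusted p = 0.387). The 2 genes called higher were Zbp1, a sensor of left-handed nucleic acid (0.56), and Oas2 (0.61). Of 13 interferon-gamma-induced GTPases, Gbp7 was called higher (0.74) and 4 lower, among them Gbp2 (-0.54). The count lower was 2 without knockdown replicate 3 and 6 with library totals. Oas, Ifit and Gbp genes have close copies, so reads shared between copies could move between members.

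Antigen-presentation genes included members called higher and members called lower in each class. Of 13 class II genes 4 were called higher and 6 lower. The count higher was 1 without knockdown replicate 3 or control replicate 2 and 2 without knockdown replicate 1 or control replicate 3, and with library totals 2 were higher and 7 lower. H2-Ab1 had 13348, 11458 and 12244 normalised counts in the knockdown, against 4358, 3740.1 and 3735 in the controls (1.65 ± 0.07). Cd74, the invariant chain, was called with overlapping groups (0.28 ± 0.08, adjusted p = 0.0165), a call lost under some alternatives. The peptide loaders H2-DMa and H2-DMb1 and the lysosomal enzymes Lgmn and Ifi30 were lower (-0.57 to -0.31). In class I, 6 of 21 were called higher and 5 lower, or 4 and 9 with library totals, where the median turned from 0.04 to -0.05. The immunoproteasome genes Psmb9, Psmb10, Psme1 and Psme2 fell (-0.64 to -0.57), while H2-D1 and B2m were not called (0.11 and 0.00). Among costimulatory genes Cd86 rose by 0.70 and Cd274, the PD-L1 gene, by 0.89, and Cd40 had 743, 876 and 851 counts in the knockdown, against 1547, 1461 and 1314 in the controls.

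Genes that mark macrophages mostly fell, although the cells kept high levels of them. In the macrophage identity list 16 of 25 were called lower and 4 higher (median -0.54). Csf1r, the receptor for the macrophage growth factor, had 50279, 47682 and 51931 normalised counts in the knockdown, against 80796, 83684 and 74862 in the controls (-0.67 ± 0.05). Trem2, a lipid-sensing receptor, had 3107, 2756 and 3409 counts in the knockdown, against 8539, 8442 and 8341 in the controls (-1.45 ± 0.06). Aif1 (-2.69) and Mertk, a receptor for dying cells (-1.12), fell too. The exceptions, called higher, included Itgam (0.57), Msr1 (0.33) and the transcription factor gene Maf (0.69).

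Large peritoneal macrophage genes were more often lower than higher: 7 of 31 were called higher and 13 lower (median -0.30). Cxcl13, Hal, Timd4 and St8sia6, given above among the deepest falls of the whole comparison, belong to this list. The factor that defines these cells, Gata6, had 349, 315 and 332 normalised counts in the knockdown, against 424, 362 and 443 in the controls, without overlap and without a call (-0.30 ± 0.12, adjusted p = 0.0782). Icam2 and Adgre1 were also not called. Thbs1 and Serpinb2, secreted or stress-related products already abundant in the controls, were higher, with Thbs1 at 725820, 594600 and 620490 counts in the knockdown, against 157120, 152630 and 153070 in the controls (2.06 ± 0.08), and Serpinb2 higher by 1.76. Ltbp1, which stores latent TGF-beta (-1.45), and Cd93 (-0.96) fell. Of 16 genes of small or monocyte-derived peritoneal macrophages, 3 were called higher and 6 lower. Mrc1, the mannose receptor gene, had 581, 578 and 644 counts in the knockdown, against 2069, 2414 and 1921 in the controls (-1.82 ± 0.14), and F13a1 fell by 2.13. Ly6c2 and Ccr2 were not called.

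Receptors for modified lipoproteins and dying cells, the class to which SR-BI belongs, were mostly lower. Of 18 scavenger receptors 12 were called lower and 4 higher (median -0.52). Marco, which binds bacteria and particles, had 228570, 223080 and 259030 normalised counts in the knockdown, against 549700, 552390 and 484930 in the controls (-1.16 ± 0.08). Cd36, the class B relative of SR-BI, had 38523, 38572 and 42269 counts in the knockdown, against 52912, 61982 and 58977 in the controls (-0.54 ± 0.06, adjusted p = 1.04e-06). All 3 knockdown libraries were below all 3 controls for both receptors, which the rule for naming Marco required. Cd5l (-2.24) and Colec12 (-0.79) fell. Olr1, the lectin-like receptor for oxidised lipoprotein, was higher, with 6329, 6325 and 6501 counts in the knockdown, against 3579.8, 3695 and 3461 in the controls (0.84 ± 0.05), and Clec7a, the beta-glucan receptor, rose by 0.71. Of 25 apoptotic cell uptake genes 13 were called lower, among them Stab1 (-0.71) and the engulfment adaptor Elmo1 (-0.88), and 5 higher, among them Lrp1 (0.46). The count higher was 3 without knockdown replicate 1 or 2 or control replicate 1 or 3, and with library totals.

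**Figure D3:**
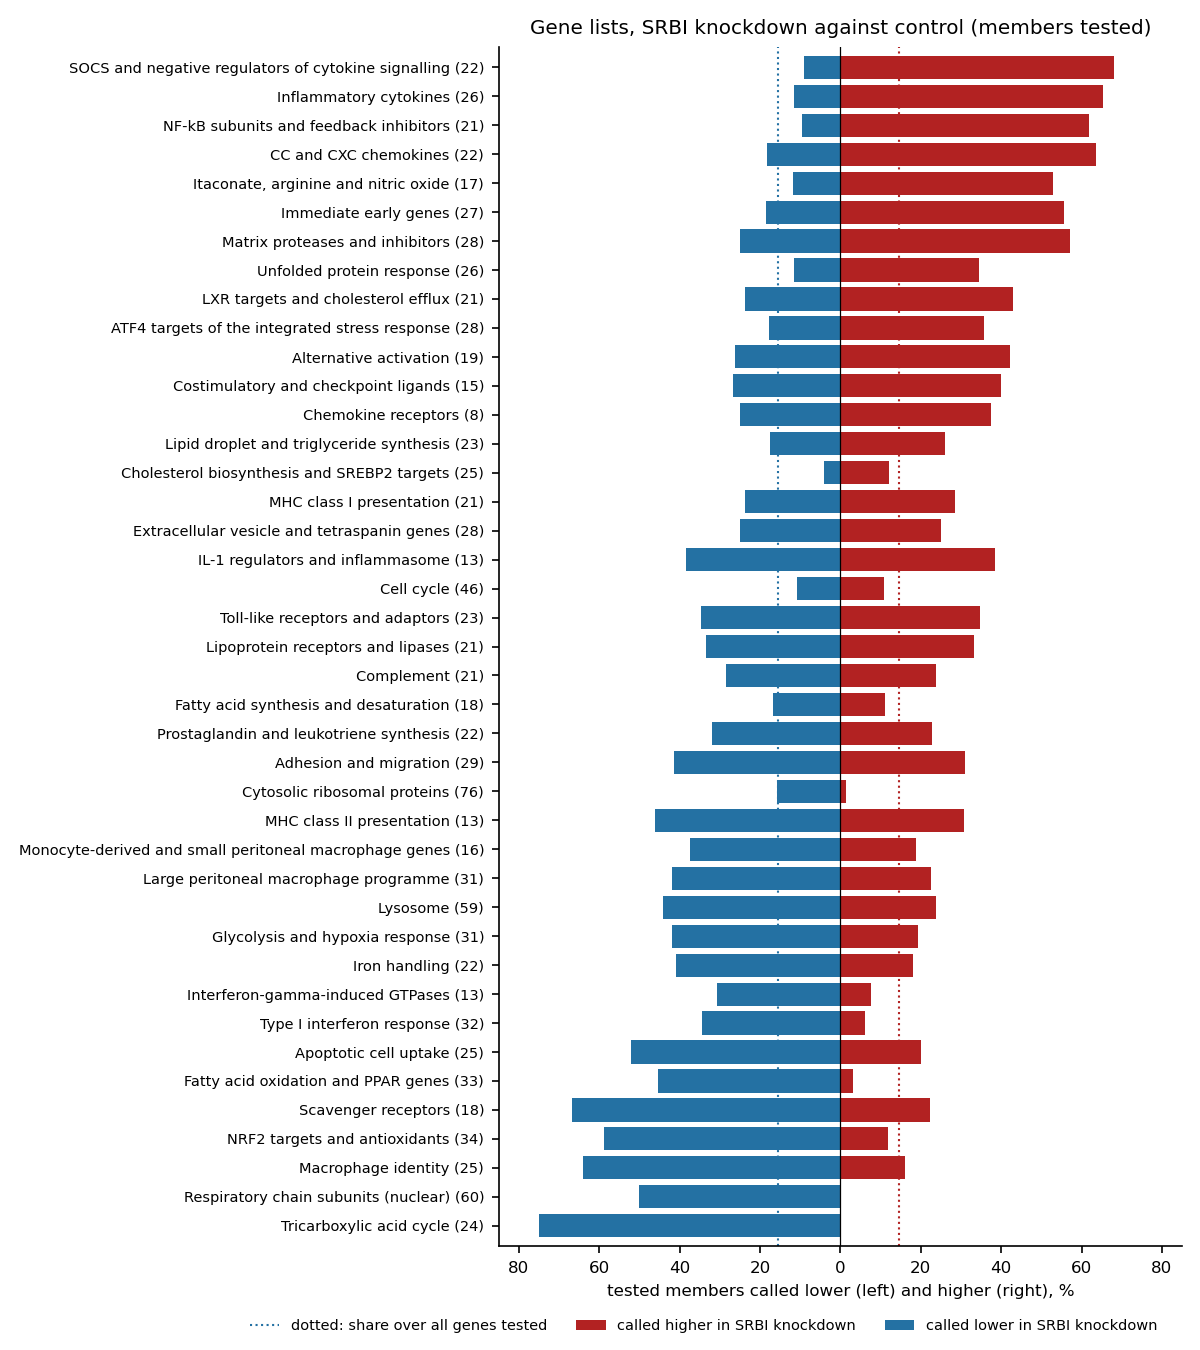
Percent of tested members called higher (right) and lower (left) in SRBI knockdown against control, for 41 gene lists, with dotted lines at the shares over all genes, 14.7% higher and 15.5% lower. Cytokine, chemokine and feedback lists extend to the right and the tricarboxylic acid cycle, scavenger receptor and macrophage identity lists to the left.

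Among cholesterol-handling genes, the ester hydrolases Lipa and Nceh1 were lower and the exporters Abca1 and Abcg1 higher. Lipa encodes the acid lipase that frees cholesterol and fatty acids from lipoproteins. It had 20949, 23201 and 23688 normalised counts in the knockdown, against 53124, 57394 and 58860 in the controls (-1.32 ± 0.06, adjusted p = 4.62e-12). Nceh1, another cholesterol ester hydrolase (-0.93), and Npc1, which carries cholesterol out of the lysosome (-0.25), fell. The exporter gene Abca1 had 29814, 26360 and 25259 counts in the knockdown, against 11102, 11686 and 11540 in the controls (1.24 ± 0.06), and Abcg1 rose by 0.83. Nr1h3, which encodes the receptor LXR alpha that controls both exporters, fell by 0.90, and Apoe was level (0.01, adjusted p = 0.957). Over the list of LXR targets and efflux genes 9 of 21 were called higher and 5 lower. Angptl4, an inhibitor of lipoprotein lipase, fell by 1.24, and Lpl was called lower with overlapping groups (-0.34), a call lost under some alternatives.

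Lipid synthesis lists differed in their share of calls. It was 16% in cholesterol biosynthesis, 27.8% in fatty acid synthesis and 43.5% in lipid droplet genes, against 30.1% over all genes. The lipid droplet counts were 6 higher and 4 lower, or 4 and 6 with library totals, and 4 and 2 without knockdown replicate 1. Of 25 cholesterol biosynthesis genes 3 were called higher and 1 lower. Sqle, at 0.14, and Srebf2, at 0.07, were not called. Dhcr7 was the gene called lower (-0.95), and 2 were lower with library totals. In fatty acid synthesis 2 of 18 were called higher and 3 lower, and 1 and 6 with library totals. The count higher was also 1 without knockdown replicate 1 or 2 or control replicate 1 or 3. Fasn and Acaca were not called (-0.10 and -0.13), while Acss2, which makes acetyl-CoA from acetate, had 1008, 1074 and 1135 normalised counts in the knockdown, against 2368, 2334 and 2650.1 in the controls (-1.19 ± 0.08). Among lipid droplet genes Hilpda, an inhibitor of droplet lipolysis, had 2473, 2200.3 and 2457 counts in the knockdown, against 642, 718 and 715 in the controls (1.78 ± 0.07). The droplet coat gene Plin2 was not called (0.11), and the fatty acid carriers Fabp4 and Fabp5 fell (-1.26 and -1.06).

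Many genes of mitochondrial fuel use were lower, by small amounts per gene. In the tricarboxylic acid cycle 18 of 24 genes were called lower and 0 higher (median -0.25), against 15.5% lower over all genes. Mdh1 had 3025, 3294 and 3230 normalised counts in the knockdown, against 5181, 4892 and 5116 in the controls (-0.67 ± 0.05), and Idh2 and Suclg1 fell (-0.61 and -0.50). Of 60 nuclear-encoded respiratory chain subunits 30 were called lower and 0 higher (median -0.18), and 45 were lower with library totals. Sdhb of complex II (-0.42), Cox5a of complex IV (-0.32) and Atp5a1 of the ATP synthase (-0.29) were among them. Fatty acid oxidation had 15 of 33 lower and 1 higher (median -0.31). Acaa2 (-0.83) and Cpt1a, which admits fatty acids to the mitochondrion (-0.38), fell, and the gene called higher was Ppard (0.41), with 2 higher without control replicate 3.

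Glycolysis and hypoxia genes had members called in both directions, more of them lower. Of 31 genes 6 were called higher and 13 lower (median -0.11). Over all genes 14.7% were called higher, which is near the share higher in this list, and 15.5% lower. The count lower was 10 to 15 with a library left out and 17 with library totals. Slc2a1, the glucose transporter GLUT1, had 13054, 12309 and 12735 normalised counts in the knockdown, against 8922, 9292 and 8879 in the controls (0.49 ± 0.05). Hif1a rose by 0.55, Hk2 by 0.32 and Adm, a hypoxia-induced vasodilator peptide, by 2.87. Pfkfb3 and Ldha were not called (-0.08 and 0.01), and Pdk1, Hk3 and Slc2a6 fell (-0.57 to -0.46).

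**Figure D4:**
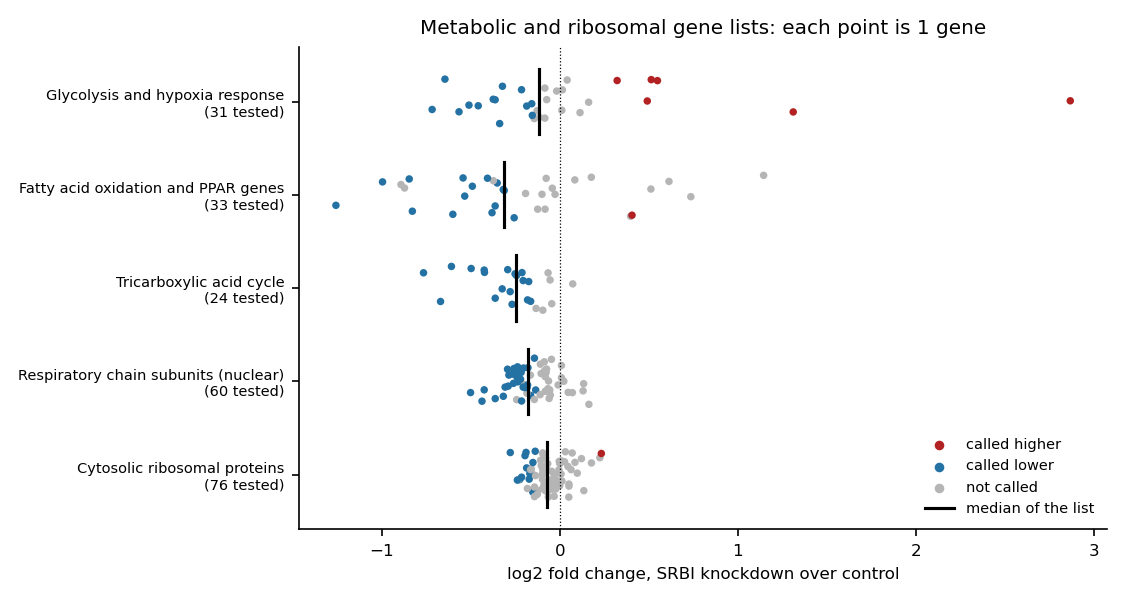
Log2 fold changes, SRBI knockdown over control, of the tested members of 5 lists, with a point for each gene, coloured where called, and a bar at the median. The tricarboxylic acid cycle and fatty acid oxidation lists centre at -0.25 and -0.31, and the ribosomal protein list at -0.07.

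The arginine genes Arg1 and Slc7a2 and the prostaglandin gene Ptgs2 rose. Arg1, which converts arginine to ornithine, had 84756, 55374 and 82016 normalised counts in the knockdown, against 12082, 15000 and 10334 in the controls (2.56 ± 0.15). The arginine transporter gene Slc7a2 had 124110, 133730 and 117790 counts in the knockdown, against 27671, 20763 and 28209 in the controls (2.30 ± 0.09). Nos2, the competing nitric oxide synthase, was low, with 20.5, 23.2 and 14.3 counts in the knockdown and 3.68, 5.42 and 18.6 in the controls (adjusted p = 0.154). Acod1, which makes itaconate, rose by 0.35. Ptgs2, the inducible cyclooxygenase COX-2, had 65806, 82389 and 66533 counts in the knockdown, against 3515, 2565 and 3805 in the controls (4.45 ± 0.11, adjusted p = 6.05e-15). The phospholipase Pla2g4a upstream of it rose by 0.76 and Ptges by 0.24. The leukotriene genes Alox5ap and Ltc4s fell (-0.67 and -1.67). Over the list of prostaglandin and leukotriene genes 5 of 22 were called higher and 7 lower (median -0.18), and 5 and 13 with library totals. Among alternative activation genes 8 of 19 were called higher and 5 lower, with Socs2 higher by 3.28, Cd163 and Tgm2 lower (-0.95 and -0.82), and Retnla and Chil3 not called.

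Stress-response lists differed in their calls, beside shares over all genes of 14.7% higher and 15.5% lower. Of 34 NRF2 targets and antioxidants 20 were called lower and 4 higher (median -0.25). Cat, the catalase gene, had 27336, 28455 and 28770 normalised counts in the knockdown, against 41381, 41854 and 41585 in the controls (-0.56 ± 0.04), and Gpx1 and Gsta3 fell (-0.70 and -0.69). Hmox1 was not called (-0.02) and Nqo1 rose by 0.32. In the unfolded protein response 9 of 26 were called higher and 3 lower, with Pdia4 higher by 0.58 and the chaperone gene Hspa5 not called (0.06). The count lower was 1 without knockdown replicate 1 or control replicate 2. Of 28 ATF4 targets 10 were called higher, among them Ddit4 (1.68) and the cystine transporter Slc7a11 (0.60), and 5 lower, while Asns was not called (0.04). The count lower was 3 without knockdown replicate 2 or control replicate 1 and 8 with library totals. In the main fit, the shares lower in the unfolded protein response and ATF4 lists were near that over all genes. The share higher among NRF2 targets was near its share over all genes too. In iron handling, the transferrin receptor gene Tfrc had 4982, 5080.1 and 5001 counts in the knockdown, against 8723, 9078 and 8589.7 in the controls (-0.81 ± 0.06). The iron importer Slc39a14 and the siderophore binder Lcn2 rose by 0.68 and 0.58, and Slc40a1 and Fth1 were not called.

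Lysosomal genes were more often lower than higher, with 26 of 59 called lower and 14 higher, and 30 and 9 with library totals. Ctsb had 146090, 149930 and 153610 normalised counts in the knockdown, against 215840, 217060 and 216110 in the controls (-0.53 ± 0.05). Psap (-0.60) and Tfeb, a regulator of lysosomal genes (-0.49), fell. Acp5, the tartrate-resistant phosphatase, went the other way, with 9676, 10625 and 10197 counts in the knockdown, against 2069.9, 1805 and 2148 in the controls (2.34 ± 0.06), and Ctsl rose by 0.71. Among complement genes C3 rose by 0.45 and its receptor C3ar1 by 0.60, while C1qa and C1qb fell (-0.73 and -0.65).

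Most matrix protease and inhibitor genes rose, with 16 of 28 called higher and 7 lower (median 0.33), and 4 lower without knockdown replicate 2. Mmp13, a collagenase, had 5062, 5114 and 5968 normalised counts in the knockdown, against 372, 556 and 555 in the controls (3.46 ± 0.12). Mmp9 had 91607, 77997 and 91807 counts in the knockdown, against 65730, 62178 and 54786 in the controls (0.52 ± 0.09). Timp1, an inhibitor of these enzymes, rose by 1.87 and Plaur by 0.97, while Timp2, Mmp2 and Plau fell (-0.76, -0.56 and -0.57). Adhesion genes were split, 9 of 29 higher and 12 lower. Vcan, a matrix proteoglycan, had 14815, 13467 and 12520 counts in the knockdown, against 2970.1, 2803 and 2925 in the controls (2.23 ± 0.08), and the integrin genes Itga4 and Itgal fell (-1.14 and -0.38), as did Icam1 (-0.64).

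Among immediate early genes 15 of 27 were called higher and 5 lower. Egr1 had 538, 429 and 587 normalised counts in the knockdown, against 221, 204 and 183 in the controls (1.34 ± 0.16), and Ier3 rose by 1.36. Fos fell by 0.50, a call lost under some alternatives, and Klf2, a quiescence factor of macrophages and endothelium, had 77.6, 89.6 and 124 counts in the knockdown, against 439, 416 and 371 in the controls (-2.09 ± 0.23). Of 46 cell-cycle genes 36 were not called, so 21.7% were called, against 30.1% over all genes. The main fit called 5 higher and 5 lower, library totals gave 3 and 9, and leaving out a library gave 3 to 4 each way. Mki67 had 7977, 9213 and 7454 counts in the knockdown, against 2851, 2371 and 3227 in the controls (1.55 ± 0.09), whereas the mitotic genes Top2a, Ccnb1 and Cdk1 were not called (-0.31, -0.19 and -0.08). Cdkn1a, which arrests the cycle, rose by 1.11 and Ccnd1, which drives entry into it, fell by 2.47. Of 76 cytosolic ribosomal protein genes 12 were called lower and 1 higher, and with library totals 39 were lower and 0 higher. In the main fit 17.1% of them were called, and 15.5% of all genes were called lower. The count lower was 5 without knockdown replicate 2 or control replicate 1 and 6 without control replicate 2, and the count higher was 0 to 3 over the libraries left out. Of 28 vesicle and tetraspanin genes 7 were called each way, with Cd53 higher by 1.09 and Flot1 lower (-1.32), and the exosome markers Cd63 and Tsg101 not called.

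Markers of other cell types were measured beside these lists. T and NK cell markers summed to 985.3 to 1097 normalised counts in the knockdown and 692.4 to 1014 in the controls, and 11 of the 19 were at 0 in every knockdown library. Neutrophil markers summed to 42480 to 48310 in the knockdown and 23230 to 24760 in the controls. Of the 13 neutrophil markers 7 were at 0 in every knockdown library, Ly6g and Elane among them, and Mmp8, which macrophages also express, had 31483, 29903 and 36237 counts in the knockdown, against 12601, 14942 and 14308 in the controls. Fibroblast and mural markers summed to 2633 to 3349 in the knockdown and 3598 to 4280 in the controls, with 4 of 10 tested called lower and 2 higher (1 higher with library totals or without knockdown replicate 1 or 2 or control replicate 1 or 2). Mesothelial markers were few, 186.4 to 211.3 in the knockdown and 366.9 to 501.6 in the controls, with 3 of 9 called lower. That count was 1 without knockdown replicate 3, control replicate 2 or control replicate 3, and 5 with library totals. Erythroid and platelet markers summed to 189700 to 214100 in the knockdown and 76080 to 82480 in the controls, nearly all of it Pf4, and 5 of the 12 were at 0 in the knockdown. B cell markers summed to 1152 to 1423 in the knockdown and 800.4 to 1132 in the controls, mast cell and eosinophil markers to 505.4 to 775.6 in the knockdown and 577.7 to 982.1 in the controls, and endothelial markers to 3788 to 4096 in the knockdown and 2955 to 3115 in the controls. The dendritic sum was 50710 to 53400 in the knockdown and 49710 to 52750 in the controls. Of 21 endothelial markers 16 were below the filter, Pecam1, Cdh5 and Tek among them, and 9 were at 0 in every knockdown library. Of 15 dendritic markers 8 were below the filter, Flt3 and Xcr1 among them. Both sums thus come mostly from the remaining members, and which cells expressed those was not tested. The part of these cells in the results was not tested.

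The knockdown and chylomicron-treated macrophages share their controls. Against those controls, the median log2 fold change of several lists had the same sign in the knockdown and in the chylomicron group. These medians were 1.63 and 1.38 for chemokines and -0.54 and -0.28 for macrophage identity. They were -0.52 and -0.30 for scavenger receptors and -0.25 and -0.19 for the tricarboxylic acid cycle. Some lists went apart, among them type I interferon response (-0.09 and 0.45). Both groups were also set against each other directly in the same fit. Of 13630 genes 1525 differed (11.2%), 763 higher in the knockdown (5.6%) and 762 lower (5.59%). The count moved with the libraries used and was 819 without knockdown replicate 1 and 935 without knockdown replicate 2. With library totals, 1026 were higher and 581 lower, a share of 63.9% higher against 50.03%. Folds in the rest of the account are knockdown over chylomicron. Neutrophil markers, Mmp8 among them, summed to 42480 to 48310 normalised counts in the knockdown and 26720 to 27840 in the chylomicron group. Mast cell and eosinophil markers summed to 505.4 to 775.6 in the knockdown and 1053 to 1156 in the chylomicron group, with 3 of 8 tested called lower (1 without knockdown replicate 1 or chylomicron replicate 1). Endothelial markers summed to 3788 to 4096 in the knockdown and 4923 to 5079 in the chylomicron group, with 2 of 5 called lower (1 with library totals or without knockdown replicate 2 or 3 or chylomicron replicate 1 or 3). B cell markers summed to 1152 to 1423 in the knockdown and 837 to 1022 in the chylomicron group, and dendritic cell markers to 50710 to 53400 in the knockdown and 54100 to 56240 in the chylomicron group. These 5 sums did not overlap between the groups, and those of the other 4 marker lists did. As given above, most endothelial and dendritic markers were below the filter, so those sums rest on few members. The part of these markers in the contrast was not tested.

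**Figure D5:**
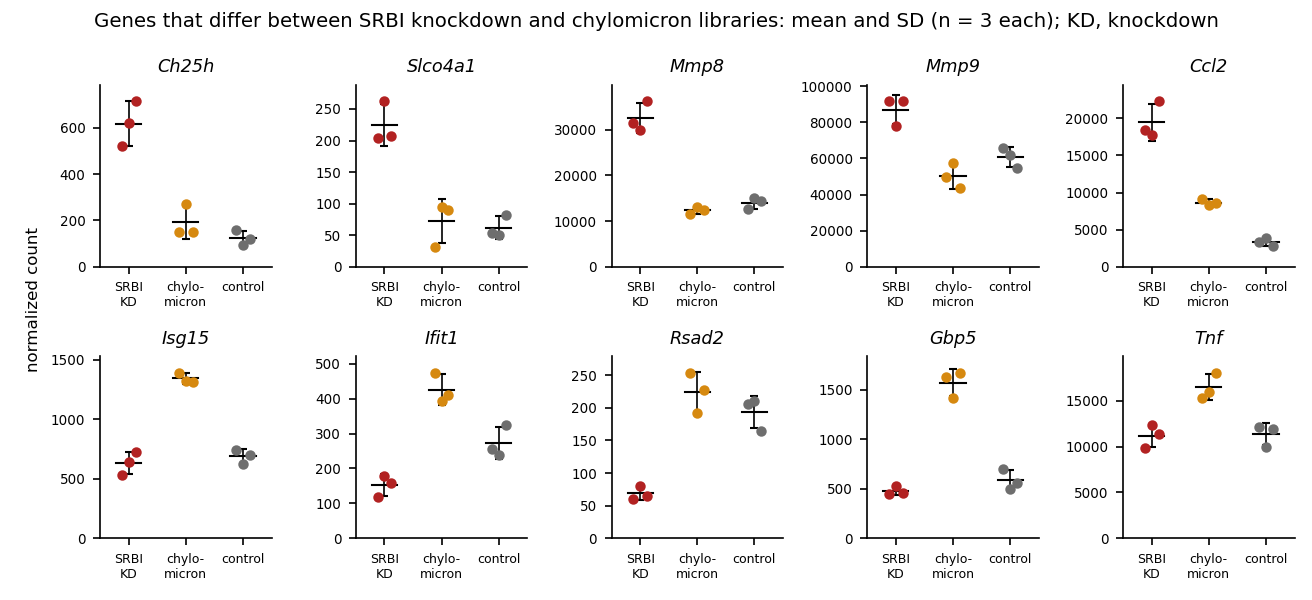
Normalised counts (y axes from 0) of 10 genes, with a point for each library, a bar at the mean and error bars of 1 SD (n = 3 each), in SRBI knockdown, chylomicron and control macrophages. Ch25h, Slco4a1, Mmp8, Mmp9 and Ccl2 lie higher in the knockdown than in the chylomicron libraries, and Isg15, Ifit1, Rsad2, Gbp5 and Tnf lie lower.

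Most interferon-response genes were lower in the knockdown than in chylomicron-treated cells. Of 32 type I genes 24 were called lower and 0 higher, with a median log2 fold change of -0.78, and of 13 interferon-gamma-induced GTPases 10 were lower and 0 higher. With library totals the first count was 23. Over all genes 5.59% were called lower. Isg15, a ubiquitin-like modifier, had 533, 639 and 724 normalised counts in the knockdown, 1390.5, 1323 and 1309 in the chylomicron group and 742, 625 and 698 in the controls (-1.09 ± 0.10, adjusted p = 3.25e-06). Gbp5 had 450.5, 533 and 458 counts in the knockdown, 1626, 1414 and 1674 in the chylomicron group and 699, 502 and 563 in the controls (-1.71 ± 0.11). For both genes the knockdown overlapped the controls, and the chylomicron libraries stood above both groups. Ifi205 was the lowest named gene at -2.48, and Rsad2 and Oasl1 were lower too (-1.69 and -1.70). Ifit1 had 117, 179 and 159 counts in the knockdown, 475, 392 and 411 in the chylomicron group and 256, 239 and 323 in the controls (adjusted p = 2.09e-05), so the knockdown was below both other groups. The promoters of Isg15, Ifit1, Rsad2 and Gbp5 are those printed near the start with the interferon-response motif in capitals.

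Many presentation, folding and cytokine genes were also lower in the knockdown than in the chylomicron group, where 5.59% of all genes were called lower. In class I presentation 18 of 21 were called lower and 0 higher, among them H2-D1 (-0.50), B2m (-0.46), and H2-Q6 and H2-Q7, near-identical copies, at -1.56 and -1.53. H2-Ab1 of class II had 13348, 11458 and 12244 normalised counts in the knockdown, 20672, 20222 and 17940 in the chylomicron group and 4358, 3740.1 and 3735 in the controls (-0.67 ± 0.07), which placed the knockdown between the other groups. Of 26 inflammatory cytokines 9 were called lower and 0 higher, and 5 were lower without knockdown replicate 1 or 3. Tnf had 9805, 12299 and 11369 counts in the knockdown, 15334, 15976 and 18062 in the chylomicron group and 12117, 9971 and 11933 in the controls (-0.56 ± 0.08). Inhba (-1.15) and Ccl22 (-1.39) were lower. In the unfolded protein response 14 of 26 were lower and 0 higher, with Hspa5 at -0.46. Ribosomal protein genes had 25 of 76 lower and 0 higher, and 18 lower with library totals. That count ranged from 7 without knockdown replicate 2 to 42 without chylomicron replicate 3. It was 15 without knockdown replicate 1 or chylomicron replicate 2 and 10 without chylomicron replicate 1.

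Many matrix protease and fatty acid synthesis genes were higher in the knockdown than in chylomicron-treated cells. Over all genes 5.6% were called higher and 5.59% lower. Of 28 protease and inhibitor genes 16 were called higher and 2 lower (median 0.35), with 5 lower without chylomicron replicate 3 and 1 without chylomicron replicate 1. Mmp8 was higher by 1.39 ± 0.07, with 11522, 13152 and 12385 normalised counts in the chylomicron group, and Mmp9 by 0.80. In fatty acid synthesis 7 of 18 were called higher and 0 lower, and 4 were higher without knockdown replicate 3. Scd2, a desaturase gene, had 5319, 5458 and 5986 counts in the knockdown, 2308, 2648 and 2552 in the chylomicron group and 3661, 4053 and 3963 in the controls (1.16 ± 0.06), and Fasn was higher by 0.44. Ch25h makes 25-hydroxycholesterol. It had 519, 619.5 and 715 counts in the knockdown, 149, 273 and 152 in the chylomicron group and 158, 93.1 and 118 in the controls (1.73 ± 0.23). Ccl2 and Arg1 were higher by 1.17 and 0.94, so both were above the chylomicron group and, as given earlier, above the controls. Cxcl14 was higher by 1.36, with knockdown values of 765, 439 and 758 that overlapped the control values of 580.2, 797 and 574. Fabp3 and Cst7 were lower than in both other groups, with log2 fold changes of -1.87 and -1.92 against the chylomicron group and of -2.01 and -2.46 against the controls.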

How the data were processed

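Normalised counts per gene (signal values) were deposited by the authors as a table of 9 macrophage libraries. Bcl2fastq, STAR 2.7.3a, featureCounts and Subread 1.6.3 appear in the submitters' processing notes with no role given, as do mm10 and GRCm38, and the counting strand is not given in the sources used here. In every library 100% of values were whole reads times a constant (within 0.01 reads), so reads were recovered. Genes averaging 10 or more were tested with limma 3.58.1 (R 4.3.3) on log2(normalised count + 1), with a trend and 9 libraries in a single fit. On recovered reads edgeR 4.0.16 called 4238 genes and DESeq2 1.42.0 called 4471, against 4109. Replicates were not duplicates. Members and lists were chosen with earlier results of these data known. Named genes were Scarb1, the extremes averaging at least 100 (8 a direction, 6 against chylomicron), and key and smallest-p list members. The extremes and smallest-p members were taken only from called genes whose groups did not overlap. Promoters are RefSeq GRCm38.p6.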

Additional observations from a re-analysis of the deposited data

How the results depend on the processing

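Against the controls, the count of 4109 genes ranged from 3263 to 4996 over the alternatives (pseudocount, filter, scaling, trend, groups fitted, edgeR, DESeq2 and each library left out), and no called gene changed sign. Leaving out a library gave 3263 to 3618 genes, 1567 to 1738 higher and 1696 to 1882 lower. Scarb1 ranged from -0.34 to -0.20 with a library left out. It lost its call without knockdown replicate 1 (-0.24) or 2 (-0.20), and without the trend in limma (-0.26, adjusted p = 0.0672). Against chylomicron-treated cells the 1525 genes became 602 without the trend (284 higher, 318 lower). With a library left out they ranged from 819 to 1807 (400 to 940 higher, 419 to 867 lower). The causes were not tested. Same-numbered libraries of different groups deviated together by correlations of -0.1039 to 0.07461, and differently numbered ones by -0.0422 to 0.1054. The numbers thus gave no sign of pairing, but values near 0 cannot settle whether libraries shared an animal, culture or batch. With the replicate number as a block, 3844 genes were called against the controls and 1251 against chylomicron. Of 338 named genes called beside Scarb1, 305 kept their call under every alternative. Among the others, Cd74, Fos and Lpl are named above. Many of the 338 were chosen for a small p or a large fold in these same libraries, so they do not stand for all calls. Of all 4109 calls, 78.0% to 84.6% were kept with a library left out and 78.7% without the trend. Counting of reads shared by close copies, 3 libraries a group and the missing labels on treatment limit these results.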
